A study of Homo sapiens with 4 samples.

Results

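The pentose phosphate and NADPH-making enzyme genes were taken by symbol from the deposited comparison of H2O2-treated with untreated HCT116 cells. All 9 symbols (PGLS, PGD, RPIA, RPE, TKT, TALDO1, ME1, IDH1 and NADK) were among its 16376 listed genes. HCT116 is an established human colon cancer cell line of epithelial type, and H2O2 (hydrogen peroxide) is an oxidant that cells remove with peroxidases. RNA-seq of poly(A)-selected RNA was made for 2 samples treated with H2O2 and 2 untreated samples labelled Control, all of the same line, and the labels give no dose or exposure time. The labels do not say whether the samples of a group were separate cultures, and the p-values therefore cover just the spread among these samples.

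NADPH supplies the electrons with which glutathione reductase and thioredoxin reductase return the cell's peroxide-removing systems to their active state. The oxidative branch of the pentose phosphate pathway makes NADPH from glucose 6-phosphate, and the reversible branch that follows passes the carbon to ribose 5-phosphate for nucleotides or back to glycolysis. Cytosolic malic enzyme and isocitrate dehydrogenase make NADPH outside the pathway, and NAD kinase makes the NADP that the NADPH-making enzymes reduce.

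Some of these genes carry a promoter sequence related to the antioxidant response element, the site through which the transcription factor NRF2 acts on its targets. The letters TGACNNNGC were searched on both strands of RefSeq windows (GRCh38.p14). Each window ran from 250 bases before to 50 bases after an annotated start. Matches were found in 4 of the 12 windows of these genes (33.3%). They were found in 13.3% of all 35116 windows and in 14.4% of the 15137 windows of listed genes. The matches upstream of the start are shown so that ME1, IDH1, PGD and RPE can be set side by side. The ME1 window also holds a further match on the opposite strand, 11 bases after the start, which is not shown. No match was found in the windows of the other 5 genes. Capitals mark the match, and each stretch is written 5′ to 3′ on the gene's own strand.
ME1: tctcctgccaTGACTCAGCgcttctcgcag
IDH1: cccctctcgcTGACTCCGCccatcccacgg
PGD: cctcgccgggGCAATGTCAtctaggtgctc
RPE: ggcggacggcTGACAGCGCcccaccccagg
The ME1 stretch is chr6:83431169-83431198 on the minus strand, and its match begins 137 bases before the start. The same bases hold TGACTCA, the letters bound by AP-1 factors. TGACTCA was found in 1 of the 12 windows of these genes, in 4.95% of all windows and in 3.78% of those of listed genes. The IDH1 stretch is chr2:208255195-208255224 on the minus strand, in one of that gene's 2 windows. The PGD stretch (chr1:10398853-10398882, plus strand) holds the match on the opposite strand, and the RPE stretch is chr2:210002477-210002506 on the plus strand. A match describes these letters and does not show that a factor binds there.

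None of the 9 genes passed the authors' DESeq test at a Benjamini-Hochberg adjusted p under 0.05, against 2.58% of all listed genes called higher with H2O2 and 4.62% called lower. A log2 fold change above 0 was held by 8 of the 9 in the authors' deposited table, and by 8191 of all 16376 listed genes. The differences were small, with deposited folds (H2O2 over Control) between 0.945 for NADK and 1.28 for ME1 in the authors' deposited table. In the authors' deposited table the 9 log2 fold changes had a median of 0.22, beside 0.00028 over all listed genes and 0.013 over the 8144 genes with a mean of at least 200 normalized counts. At an unadjusted p under 0.05, 2 of the 9, ME1 and RPIA, were higher in the authors' deposited table, against 7.72% of all listed genes.

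The table gives group means only. Each mean is built from the counts of 2 libraries, and these whole counts were worked back from it. A normalized count is such a count divided by its library's size factor. Over the listed genes alone, the counts summed to 7365032 and 6858809 reads with H2O2 and to 7309731 and 6892854 reads in Control. Within a group the libraries are named deeper and shallower by these sums, since no replicate number can be tied to them. The column headers name the groups A and B. Control was read as A because it comes first in the table's name, and all directions depend on this reading. The Control libraries differed more from each other than the H2O2 libraries did, with a chi-square per degree of freedom over genes of 6.83 between the Control libraries and 2.32 between the H2O2 libraries. The shallower Control library differed from the deeper and shallower H2O2 libraries by 6.47 and 5.71 on this measure, which is less than it differed from the other Control library. The deeper Control library differed from the deeper and shallower H2O2 libraries by 12.4 and 11.1. All 7 epithelial markers were listed, with summed normalized counts of 13621 and 13041 with H2O2 and of 10289 and 12158 in Control. Of the markers of other cell types, CD14 (1 of 4 leukocyte genes) and COL1A1 (1 of 4 fibroblast genes) were listed, and none of the 3 endothelial genes was. CD14 had normalized counts of 18.3 and 10.4 with H2O2 and of 4.79 and 3.08 in Control, and COL1A1 had 559 and 547 with H2O2 and 748 and 759 in Control. Whether these markers play a part in the values below was not tested. In bulk RNA, fewer cells of a type and less RNA per cell cannot be told apart.

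Across the 9 genes the normalized counts of the H2O2 libraries lay above those of both Control libraries for 7 and below them for NADK, while the groups overlapped for PGLS. Over all listed genes, 26.3% had both H2O2 libraries above both Control libraries and 25.6% had both below, so lack of overlap alone was common in this table.

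**Figure D1:**
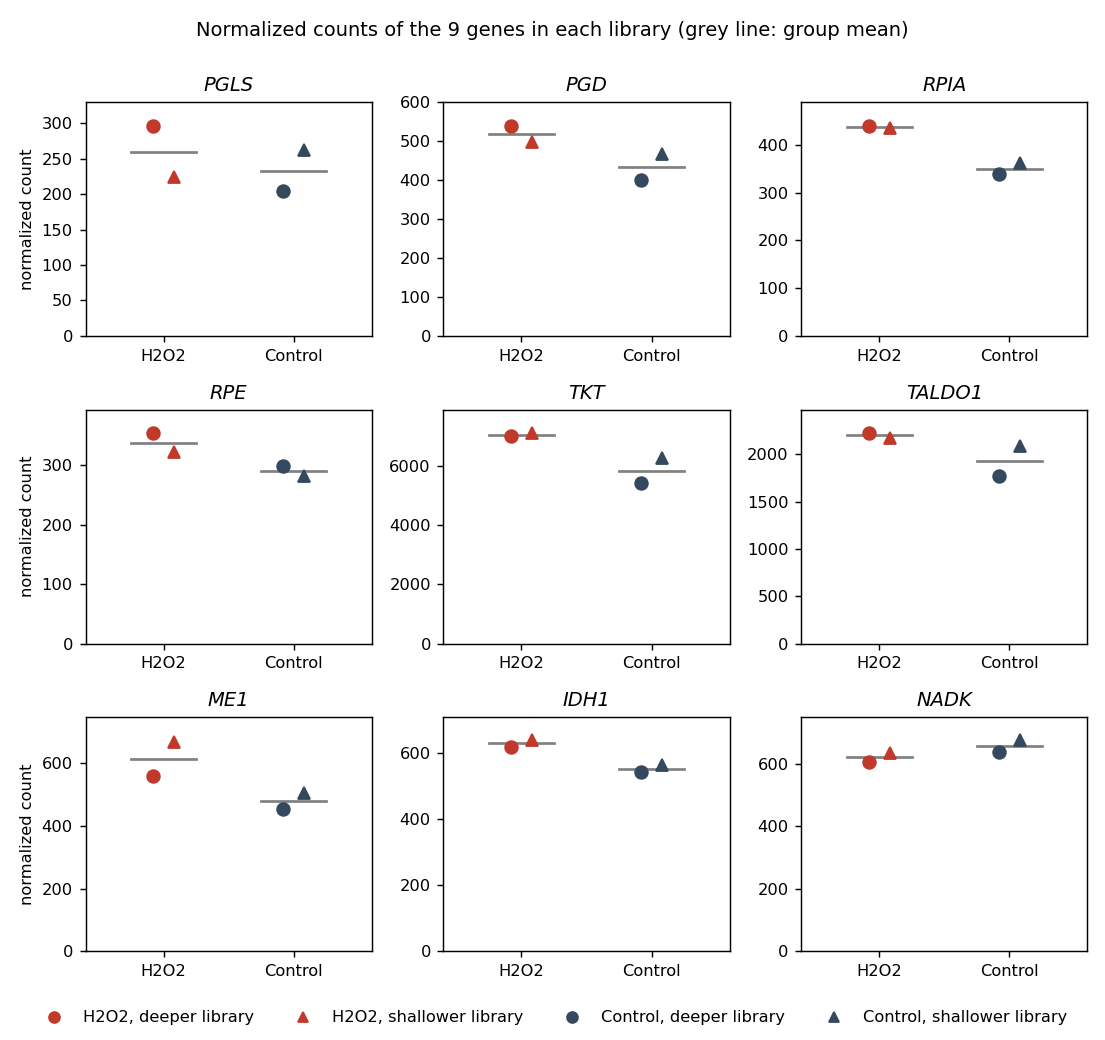
Each panel shows 1 gene, with the normalized count on the vertical axis from 0, H2O2 libraries on the left and Control libraries on the right. Circles are the deeper and triangles the shallower library of a group, and grey lines are group means. The values of the groups do not overlap in 8 panels, by only 0.131% for NADK, and overlap for PGLS.

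The oxidative branch is represented by PGLS and PGD. PGLS encodes 6-phosphogluconolactonase, which opens the lactone made in the first step. It had normalized counts of 295 and 224 in the deeper and shallower H2O2 libraries, against 204 and 262 in the deeper and shallower Control libraries. The shallower Control library lay above the shallower H2O2 library, and no direction was shared by the libraries. Its log2 fold change in limma, fitted to log2(normalized count + 1) of each library, was 0.15 ± 0.17 (SE, n = 2 libraries per group; limma, adjusted p = 0.644). PGLS is also the shortest of the 9 genes, and 25.4% of its exonic bases are overlapped by an antisense gene (AC010618.3) whose reads cannot be separated if counting ignored the strand.

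PGD encodes 6-phosphogluconate dehydrogenase, which releases carbon dioxide and makes NADPH. It had 539.6 and 498 normalized counts in the deeper and shallower H2O2 libraries, against 401 and 467 in the deeper and shallower Control libraries. Both H2O2 libraries were higher than both Control libraries, and the nearest pair was separated by 6.68%. The limma log2 fold change was 0.26 ± 0.12 (SE; limma, adjusted p = 0.253), with a 95% interval from -0.0033 to 0.53.

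The reversible branch is represented by RPIA, RPE, TKT and TALDO1. RPIA encodes ribose 5-phosphate isomerase, which makes the sugar phosphate used for nucleotides. It had 440.2 and 435 normalized counts with H2O2, against 338 and 361 in Control. The groups were separated by 20.3%, the widest gap between nearest libraries among the 9 genes. RPIA stood at 437 ± 3.81 with H2O2 and 349.8 ± 16.2 in Control (mean ± SD, n = 2 each). Its log2 fold change was 0.32 ± 0.12 (SE; limma, adjusted p = 0.149), and its adjusted p was 0.175 in the authors' deposited table.

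RPE encodes ribulose 5-phosphate epimerase, which makes xylulose 5-phosphate. It had 354 and 321 normalized counts with H2O2, against 299 and 281 in Control, and both H2O2 libraries were the higher. The log2 fold change was 0.22 ± 0.13 (SE; limma, adjusted p = 0.358). The value is uncertain, because 31.5% of the 75-base words of its longest transcript also occur in transcripts of the antisense neighbour KANSL1L or the retrocopy RPEL1.

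TKT encodes transketolase, which moves short carbon units between sugar phosphates. It had 7010.0 and 7106 normalized counts with H2O2, against 5412 and 6269.8 in Control. The H2O2 libraries were close together and both exceeded the Control libraries, which differed from each other by 0.21 on the log2 scale. The limma log2 fold change of TKT was 0.28 ± 0.12 (SE; limma, adjusted p = 0.209), and in the authors' deposited table it had a fold of 1.21 and an adjusted p of 0.293. Counting error alone would give TKT a standard error of 0.018 on the log2 scale.

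TALDO1 encodes transaldolase, which works beside transketolase. It had 2226 and 2174 normalized counts with H2O2, against 1776 and 2084 in Control. The nearest H2O2 library was 4.33% above the shallower Control library, the narrowest gap among the 7 genes with higher H2O2 libraries. The limma log2 fold change was 0.19 ± 0.11 (SE; limma, adjusted p = 0.349).

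Outside the pathway, ME1 encodes cytosolic malic enzyme, which makes NADPH while turning malate into pyruvate. It had 559 and 669 normalized counts in the deeper and shallower H2O2 libraries, against 453 and 505 in the deeper and shallower Control libraries. Both H2O2 libraries were higher, and the H2O2 libraries differed from each other by 0.26 on the log2 scale. ME1 had the smallest adjusted p of the 9, 0.102 at a fold of 1.28 in the authors' deposited table. The limma log2 fold change was 0.35 ± 0.13 (SE; limma, adjusted p = 0.130), with a 95% interval from 0.085 to 0.62, which corresponds to folds between 1.06 and 1.54.

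IDH1 encodes the NADP-dependent isocitrate dehydrogenase of the cytosol and peroxisomes. It had 617 and 638 normalized counts with H2O2, against 542 and 561 in Control. The libraries of each group lay close together and the groups were 9.85% apart at their nearest. The log2 fold change was 0.19 ± 0.11 (SE; limma, adjusted p = 0.367).

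NADK encodes NAD kinase, which phosphorylates NAD to NADP. It was the 1 gene of the 9 with a value below 0, at 607 and 636.6 normalized counts with H2O2, against 637.4 and 679 in Control. The higher H2O2 library was only 0.131% below the lower Control library. The log2 fold change was -0.08 ± 0.11 (SE; limma, adjusted p = 0.723), with a 95% interval from -0.32 to 0.16.

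limma called none of the 9 genes at an adjusted p under 0.05, against 4.10% of all listed genes, and 3 (ME1, RPIA and TKT) were higher at an unadjusted p under 0.05, against 8.48% of all listed genes. The upper ends of the 95% intervals ran from a fold of 1.12 for NADK to 1.54 for ME1. A larger rise of any of these genes lay outside its interval, while rises of 1.3-fold lay inside the intervals of the other 8 genes.

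**Figure D2:**
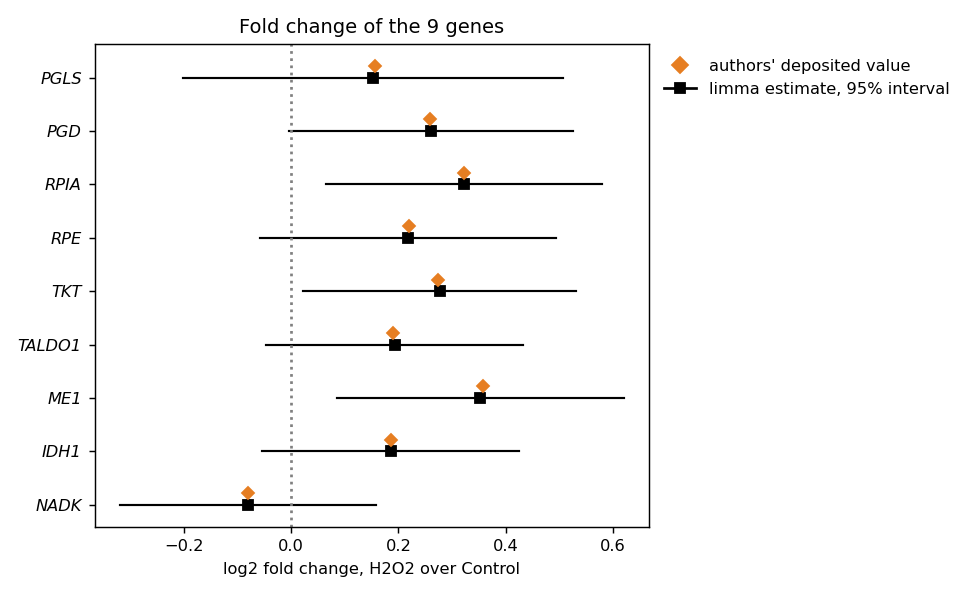
The horizontal axis is the log2 fold change of H2O2 over Control. Diamonds are the values in the authors' deposited table and squares are limma estimates with 95% intervals. The intervals of RPIA, TKT and ME1 lie above 0 before adjustment, and those of the other 6 genes include 0.

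The Control libraries differed from each other in the same direction for most of the 9 genes. The shallower Control library was higher than the deeper one for 8 of the 9 genes, all but RPE, against 51.2% of all listed genes. The median difference was 0.16 on the log2 scale for the 9 genes and 0.0094 over all listed genes. Between the H2O2 libraries the median difference (shallower minus deeper) was -0.018. Without the shallower Control library, limma called 5 of the 9 genes higher (PGD, RPIA, TKT, TALDO1 and ME1), against 10.6% of all listed genes called higher in that fit. Its spread comes from the H2O2 libraries alone, with the lone Control library assumed to vary like them. TKT then had a log2 fold change of 0.38 (limma, adjusted p = 1.05e-05) and TALDO1 one of 0.31 (limma, adjusted p = 0.00287). Without the deeper Control library none of the 9 was called, and TKT stood at 0.17, PGD at 0.15 and TALDO1 at 0.078.

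The H2O2 libraries mattered most for ME1 and PGLS. The log2 fold change of ME1 was 0.48 when the deeper H2O2 library was left out and 0.22 when the shallower one was, and none of the 9 genes was called in either fit. PGLS changed sign, at -0.048 with the deeper H2O2 library left out and -0.026 with the deeper Control library left out, against 0.35 without the shallower H2O2 library and 0.33 without the shallower Control library. RPE stood at 0.15 with the deeper H2O2 library left out and at 0.29 with the shallower left out. RPIA, between 0.28 and 0.37, and IDH1, between 0.16 and 0.21, varied least among the genes above 0.

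**Figure D3:**
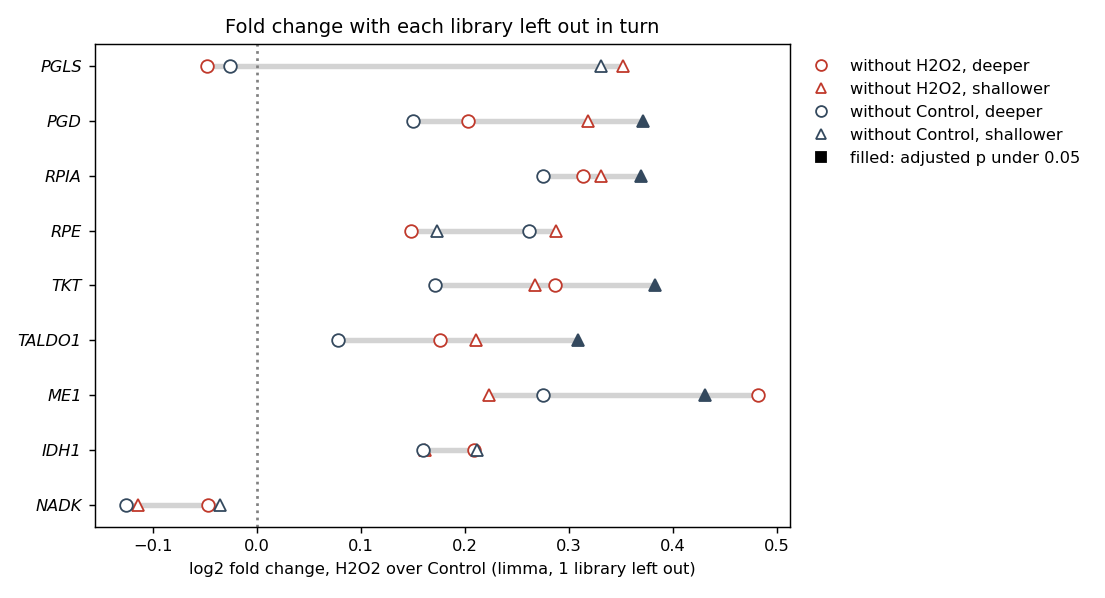
Each row is 1 gene and each symbol is its log2 fold change of H2O2 over Control in limma with 1 library left out, with color and shape naming that library. Filled symbols mark an adjusted p under 0.05 and occur for PGD, RPIA, TKT, TALDO1 and ME1 without the shallower Control library.

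Gene length moved with the fold changes of the whole table. In the authors' deposited table the median log2 fold change was 0.14 for the 1483 genes with under 1500 bases of merged exons, 0.073 for those of intermediate length and -0.10 for the 6082 genes with 4000 bases or more. All 9 genes were shorter than 4000 bases, from 1028 for PGLS to 3880 for NADK. After a smooth length trend was removed from each library, none of the 9 was called. PGLS then stood at a log2 fold change of 0.012, TALDO1 at 0.067 and PGD at 0.16, while ME1 kept 0.33 (limma, adjusted p = 0.0923) and TKT 0.24. RPIA stood at 0.22, RPE at 0.21, IDH1 at 0.13 and NADK at -0.072.

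The levels of the 9 genes were compared as normalized counts per kilobase of merged exons. TKT was the highest, at 2326 ± 22.5 with H2O2 and 1925 ± 199.98 in Control (SD, n = 2 each). TALDO1 followed at 1634 ± 27.3 with H2O2 and 1434 ± 162 in Control. RPE was the lowest, at 96.4 ± 6.63 with H2O2 and 82.8 ± 3.59 in Control. The highest and the lowest level thus differed 24.1-fold with H2O2 and 23.2-fold in Control.

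Between these extremes PGD stood at 275, PGLS at 252, RPIA at 237, IDH1 at 225, ME1 at 182 and NADK at 160.3 normalized counts per kilobase with H2O2. In Control the levels were 230.2 for PGD, 227 for PGLS, 189 for RPIA, 198 for IDH1, 142 for ME1 and 169.6 for NADK. The libraries of PGD and PGLS overlapped in both groups, and those of PGLS and RPIA overlapped with H2O2. ME1 was above NADK with H2O2 and below it in Control, and their libraries did not overlap in either group. RPIA was above IDH1 with H2O2 without overlap, and in Control their libraries overlapped. With the longest transcript in place of merged exons, IDH1 moved above PGLS and RPIA with H2O2 and the other genes kept their order.

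**Figure D4:**
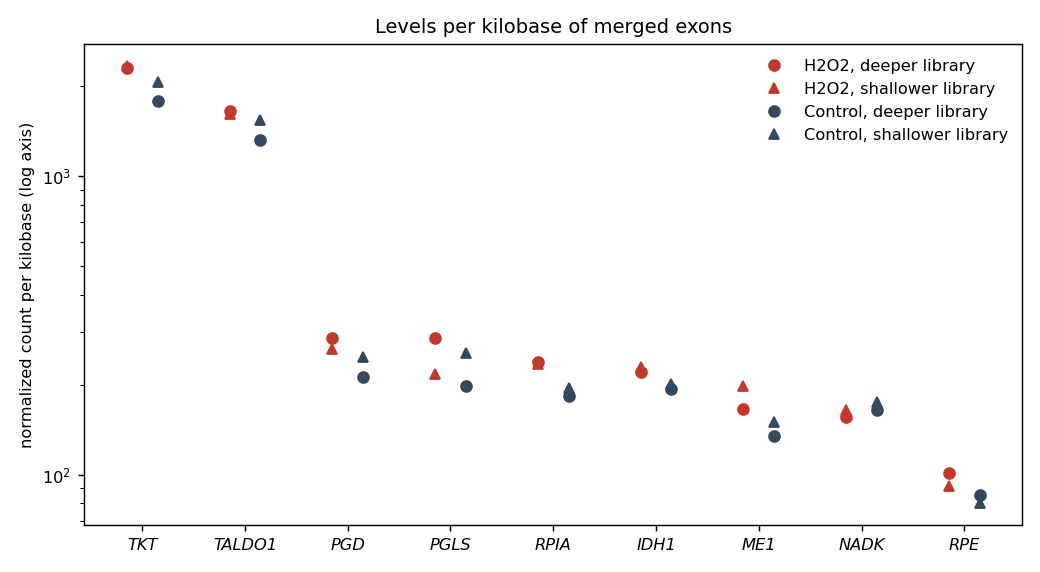
Normalized counts per kilobase of merged exons are shown on a log axis for each library, with H2O2 libraries left of Control libraries for each gene. The lowest library of TKT and TALDO1 stands at 1319.6 (TALDO1, Control), above the highest library of the other genes at 287.3 (PGLS, H2O2).

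The likeness of a pair of genes was described by the root mean square difference of their centred log2 values over the 4 libraries, among 85 genes, the 9 and the genes of the related lists with a mean of at least 50 normalized counts. RPIA lay nearest to PRPS1, which makes phosphoribosyl pyrophosphate from ribose 5-phosphate, at a difference of 0.013. TKT also lay nearest to PRPS1, at 0.038, and then to TALDO1, at 0.046. TALDO1 lay nearest to the cytochrome b5 reductase CYB5R3, at 0.013. PGLS lay nearest to AKR1B1 (0.097), PGD to SPR (0.040), RPE to PRPS2 (0.038), ME1 to NMRK1 (0.078), IDH1 to PRPSAP2 (0.025) and NADK to NMNAT3 (0.030). All genes compared were chosen from related metabolism, so a related nearest gene was fixed in advance. With 4 libraries these differences describe the values of the genes and nothing more.

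Other genes of the same metabolism were read from 5 lists of related genes. Among 9 listed genes of other pentose phosphate and ribose steps, the authors' deposited table had H6PD lower, none higher and 8 not past the threshold, at a median log2 fold change of 0.18. H6PD encodes the dehydrogenase that starts the same oxidative route inside the endoplasmic reticulum. It had 437 and 378 reads with H2O2, against 608 and 503 in Control, and fell to a fold of 0.742 (adjusted p = 0.0360) in the authors' deposited table. It did not pass in limma with all 4 libraries (limma, adjusted p = 0.0608), nor after the length trend was removed. With a library left out, whether H6PD passed depended on which library that was. H6PD is a long gene, with 9072 words of 75 bases in its longest transcript. It thus belongs to the class of 4000 bases or more, whose median lay at -0.10 on the log2 scale. Whether length plays a part in its lower value was not tested. PRPS1 had 555 and 508 reads with H2O2, against 425 and 435 in Control, at a fold of 1.25 (adjusted p = 0.164), and RBKS, ribokinase, a fold of 1.31 (adjusted p = 0.432) in the authors' deposited table.

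None of 13 listed genes of other NADPH makers passed, and in the authors' deposited table their median log2 fold change was 0.036. At an unadjusted p under 0.05 there was 1, lower, in the authors' deposited table, where 11.9% of all listed genes were lower. limma gave 2 of the 13 in either direction, against 20.2% of all listed genes. The mitochondrial folate enzyme MTHFD2, glutamate dehydrogenase GLUD1 and the mitochondrial NAD kinase NADK2 had folds of 1.17, 1.13 and 1.18 in the authors' deposited table, with adjusted p-values of 0.320, 0.457 and 0.477. The values of MTHFD2 and GLUD1 are uncertain, since 31.0% and 28.8% of their 75-base words occur in transcripts of other genes.

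Among 11 listed NAD supply genes 1 was higher, none was lower and 10 did not pass, with a median of -0.059 in the authors' deposited table. KMO, kynurenine 3-monooxygenase of the route from tryptophan to NAD, had 26 and 25 reads with H2O2, against 10 and 11 in Control. Its fold was 2.45 (adjusted p = 0.0482) in the authors' deposited table. It did not pass in limma (limma, adjusted p = 0.0635) but did with the length trend removed (limma, adjusted p = 0.0465). The value is uncertain, since 29.6% of its words are shared with the overlapping gene OPN3. NADSYN1, NAD synthetase, had a fold of 0.793 (adjusted p = 0.124), NAMPT, which starts NAD salvage from nicotinamide, a fold of 1.18 (0.322), and the phosphodiesterase ENPP1 a fold of 0.845 (0.527) in the authors' deposited table. NAMPT shares 28.2% of its words with a pseudogene.

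Of 35 listed NADPH users in redox defence and synthesis, DUOX1 was lower, none was higher and 34 did not pass, and the log2 fold changes had a median of 0.11 in the authors' deposited table. The list also holds CYB5R1 and CYB5R3, which are known mainly as users of NADH. DUOX1 encodes a dual oxidase, which spends NADPH to make H2O2. It had 268 and 240 reads in the deeper and shallower H2O2 libraries, against 487 and 444 in the deeper and shallower Control libraries. The groups were far apart, and DUOX1 fell by 0.86 ± 0.12 on the log2 scale (SE; limma, adjusted p = 0.00144). Its adjusted p was at most 0.00433 in limma with a library left out. CBR3, a carbonyl reductase, and NOXO1, an organizer of NADPH oxidase, had folds of 1.44 and 1.33 (adjusted p = 0.223 and 0.359) in the authors' deposited table. Both are uncertain, with 32.0% and 67.9% of their words shared with other genes.

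None of 15 listed genes of glucose entry and the sugar phosphates shared with glycolysis passed, and the log2 fold changes had a median of 0.13 in the authors' deposited table. At an unadjusted p under 0.05 both the authors' deposited table and limma gave 1 of the 15, against 19.6% of all listed genes in the authors' deposited table and 20.2% in limma. Hexokinase HK2 had 361 and 424 reads with H2O2, against 235 and 381 in Control, and its groups overlapped after normalization. The deposited folds were 1.28 for HK2, 0.841 for the phosphofructokinase PFKL and 1.15 for the glucose transporter SLC2A3 in the authors' deposited table (adjusted p = 0.125, 0.279 and 0.460). Between the Control libraries, 14 of the 15 genes were higher in the shallower one, by a median of 0.27 on the log2 scale. Over all listed genes 51.2% were higher in the shallower Control library. Without that library limma called 10 of the 15 higher, against 10.6% of all listed genes.

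**Figure D5:**
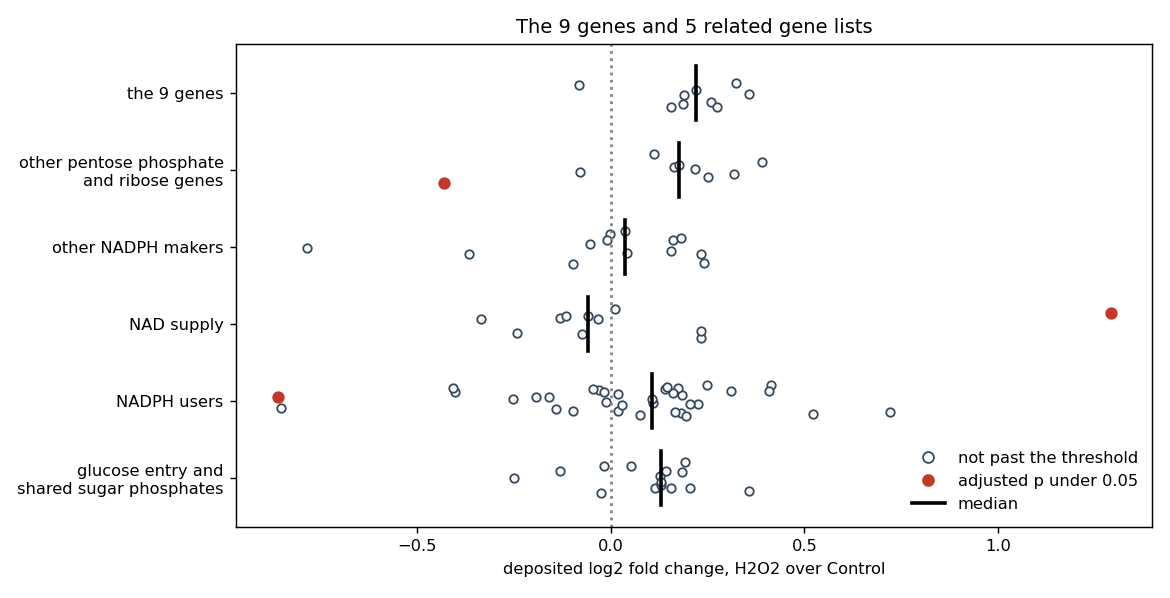
Each point is 1 gene, placed by its log2 fold change of H2O2 over Control in the authors' deposited table, with the 9 genes in the top row and the 5 related lists below. Vertical bars are medians and filled points passed an adjusted p under 0.05. The filled points are H6PD and DUOX1 below 0 and KMO above 0.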

How the data were processed

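RNA-seq was made of 2 H2O2 and 2 Control samples of HCT116. The build hg19 and the tools STAR, HTSeq, DESeq, Trim Galore, FastQC and CASAVA (1.8) appear in the submitters' processing notes. Which tool did what, the annotation and the strand setting were not given in the sources used here. Per the file headers, the deposited table holds a signal per gene. This is the size-factor-normalized count, averaged by the authors over all libraries and per group. It also holds the fold, a ratio of the group means as deposited by the authors, its log2 as deposited, and p-values of the authors' DESeq test with Benjamini-Hochberg adjustment. The main result is that test over all 16376 genes, with a threshold of 0.05 on the adjusted p. Genes below the lowest listed mean, 5.46, are not analysed here.

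The 2 whole counts behind each group mean were found to within 1e-09, and 100% of genes had 1 solution in each group. Recovery and limma were tested on simulated data. log2(normalized count + 1) was then fitted in limma (3.58.1, under R 4.3.3) with its trend option. On that scale fold changes of low genes are understated. Alternatives changed the pseudocount, scaling, filter on low means, libraries, length trend and threshold. Exon lengths and 75-base words came from GENCODE release 29 (GRCh38) by symbol or synonym (85.1% of genes matched), and promoters from RefSeq (GRCh38.p14, 9 of 9 genes). No coordinates of the table's build are given. Members and lists were chosen with earlier results of these data known. All 9 genes are named. From each list, genes past the threshold are named, with the 3 largest absolute log2 fold changes among means of at least 50.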

Additional observations from a re-analysis of the deposited data

How the results depend on the processing

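No paired analysis was possible because the table carries group means and ties no recovered library to a replicate number. The authors' test called 1178 of all listed genes, and limma 671, with 663 at a pseudocount of 0.5, 686 at 8, 669 with total-count scaling, 655 with upper-quartile scaling, 460 for means of at least 50 and 726 after removal of the length trend, and between 284 and 3641 with a library left out. The causes of these differences were not tested. Of the 9 genes 0 were called under each of these settings with all 4 libraries, and between 0 and 5 with a library left out. The count in the list of other pentose phosphate and ribose genes was 1 in the authors' deposited table, 0 in each limma fit with all 4 libraries and 0 to 2 with a library left out. In the NAD supply list it was 1 in the authors' deposited table, 0 in limma under pseudocounts of 0.5, 1 and 8, both scalings and the filter on means, 1 (KMO, higher) after removal of the length trend, and 0 to 2 with a library left out. Other NADPH makers gave 0 to 1, NADPH users 1 to 12 and the glucose list 0 to 10 with a library left out, and NADPH users 2 in the authors' deposited table at an adjusted p under 0.1. The highest of these counts came without the shallower Control library, except for other NADPH makers, where it came without the deeper. The log2 fold change of PGLS lay between -0.048 and 0.35 with a library left out, and was negative without the deeper library of either group. The other 8 genes kept their direction in every fit run. On the log2 scale the standard error from counting alone ran from 0.018 for TKT to 0.092 for PGLS. For RPIA it was 0.073 and for IDH1 0.059, above the 0.048 and 0.035 from the spread between libraries alone. That spread is poorly known from 2 libraries per group. The limma standard errors of RPIA and IDH1 were larger, at 0.12 and 0.11. What limits the precision of these genes was not tested.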
